A study of Mus musculus with 12 samples.

Results

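Immunity-related GTPases (IRG) are interferon-inducible proteins of the innate defence against vacuolar pathogens, and 7 of their genes were followed here through 12 pancreatic tumours. The 7 members were taken by symbol from a table of 24956 gene symbols, and all 7 were found and passed the filter on low counts. Irgm1, Irgm2 and Igtp form the regulatory IRGM class. Iigp1, Ifi47, Tgtp1 and Tgtp2 form the effector GKS class. Compared with WT hosts, tumours of Alb-Cre Stat3f/f hosts had higher Irgm1, Ifi47 and Tgtp2 at an adjusted p under 0.05, and no member was lower. Irgm1 and Ifi47 were each called in 21 of 22 alternative fits, but Tgtp2 in only 8 of 19. Tgtp2 rested on few counts that cannot be separated from those of Tgtp1, and the sum of both genes did not pass.

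Interferon gamma made by T cells and natural killer cells binds its receptor, and signalling through the kinases JAK1 and JAK2 then drives a first wave of genes such as Irf1, followed by the IRG and guanylate-binding protein (GBP) genes. In mouse cells, IRGM proteins sit on the cell's own membranes and keep GKS proteins in their inactive, GDP-bound state there. GKS proteins load as GTP-bound oligomers onto vacuoles that hold parasites such as Toxoplasma gondii and break them open, and the conjugation machinery of autophagy is needed for that loading to find the right membrane. Irgm1 is also known in mice for restraining interferon gamma-driven damage to the host's own lymphocytes and macrophages.

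The tumours came from hosts labelled Alb-Cre+/+ STAT3f/f (6 tumours), in which the albumin promoter drives Cre in hepatocytes and both Stat3 alleles carry loxP sites, and from WT hosts (6 tumours). All 12 tumours were grown from 1 cell line, PDA.69, labelled as KPC derived Tcelllow pancreatic ductal adenocarcinoma (PDAC). The deletion is thus in the hosts' hepatocytes, and the tumour cells of both groups carry the line's own Stat3. The sources used here do not give tumour age, host age or sex, or the site of implantation. Each library is labelled as a separate tumour, but nothing in the labels says that each came from its own mouse, so the p-values cover only the spread among these samples.

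Counts came from QuantSeq 3' libraries of RNA scraped from fixed, paraffin-embedded sections, with 6083638 to 8085609 counts per Alb-Cre Stat3f/f library and 5691707 to 7594880 per WT library. Reads of this assay fall close to transcript 3' ends, so levels do not scale with transcript length. Levels are given as CPM, the count scaled to a library of common size after TMM normalisation, and fold changes are log2 ratios of Alb-Cre Stat3f/f to WT, ± SE. Stat3 measured 258 ± 34.0 CPM in Alb-Cre Stat3f/f tumours and 257 ± 15.5 CPM in WT tumours (SD, n = 6 each), which does not check the labels, since the floxed allele is deleted in hepatocytes. The 8 markers of ductal epithelium, among them Krt7, Krt19 and Epcam, summed to 2569 to 3409 CPM in Alb-Cre Stat3f/f tumours and 3550 to 4242 CPM in WT tumours. Genes of acinar pancreas, the enzyme-secreting tissue next to the tumour, took 26.4 ± 16.8% of the counts in Alb-Cre Stat3f/f tumours, range 0.862 to 44.7%, and 7.36 ± 8.31% in WT tumours, range 0.604 to 23.0% (SD, n = 6 each, exact two-sided permutation p = 0.0325). Amy2a5, a defining acinar gene, was at 0 in all libraries while 24 of 27 acinar genes passed the filter.

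The classes are named for 1 residue of the P-loop (G1), the stretch that grips the phosphates of the nucleotide: methionine in IRGM proteins and lysine in GKS proteins. The coding bases of this stretch are shown for the members on chromosome 11, since they are what divides the family. The codon in capitals is the one that separates the classes, and sequences are from GENCODE release M21 transcripts, 5′ to 3′.
Irgm1: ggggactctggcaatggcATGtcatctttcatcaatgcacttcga
Irgm2: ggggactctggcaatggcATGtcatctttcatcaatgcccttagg
Igtp: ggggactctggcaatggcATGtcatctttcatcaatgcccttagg
Ifi47: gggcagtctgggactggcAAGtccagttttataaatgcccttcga
Tgtp1: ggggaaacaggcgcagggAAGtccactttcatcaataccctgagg
Tgtp2: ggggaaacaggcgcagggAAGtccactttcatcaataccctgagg
The capital codon is codon 89 of 409 in Irgm1, 89 of 407 in Irgm2, 97 of 423 in Igtp, 87 of 420 in Ifi47 and 69 of 415 in both Tgtp genes. Irgm2 and Igtp were identical over these 45 bases, as were Tgtp1 and Tgtp2. Over the whole coding sequence Tgtp1 and Tgtp2 were identical at 1241 of 1245 aligned bases (99.7%), and over the last 300 bases of the transcripts, where reads of this assay fall, at 300 of 300. The sources used here do not say how reads that match both were counted, so the separate values of Tgtp1 and Tgtp2 are uncertain. The other pairs of these 6 genes were 52.0 to 67.9% identical in coding sequence and 44.5 to 50.6% over the last 300 bases.

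Irgm1, the IRGM member with the broadest known role in host defence of mice, had a lowest, median and highest level of 17.5, 21.1 and 25.4 CPM in Alb-Cre Stat3f/f tumours, against 6.71, 8.53 and 11.8 CPM in WT tumours. Every Alb-Cre Stat3f/f tumour lay above every WT tumour. The log2 fold change was 1.28 ± 0.17, a 2.44-fold difference, with an adjusted p of 0.000499 (edgeR's quasi-likelihood test, Benjamini-Hochberg over 12856 genes), which ranked Irgm1 at place 7 among all genes tested. The raw counts behind these levels summed to 797 in Alb-Cre Stat3f/f tumours and 403 in WT tumours. Irgm1 is on chromosome 11 (GRCm38 chr11:48861968-48871683, minus strand).

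Igtp, also called Irgm3, sits on the endoplasmic reticulum and lipid droplets, and was the most abundant IRGM member. Its lowest, median and highest levels were 105.0, 138.5 and 230.4 CPM in Alb-Cre Stat3f/f tumours, against 34.2, 73.7 and 97.9 CPM in WT tumours. The groups did not overlap, yet the tumours of each genotype were spread widely, with SDs of 47.6 CPM in Alb-Cre Stat3f/f and 26.6 CPM in WT. The log2 fold change of 1.15 ± 0.29 did not pass 0.05 (adjusted p = 0.0598, edgeR's quasi-likelihood test). Over the 12 fits that each left out 1 tumour the adjusted p ran from 0.0469 to 0.116, and it passed in 1 of them, without Alb-Cre Stat3f/f tumour 4.

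Irgm2, found on the Golgi, had a lowest, median and highest level of 12.6, 18.3 and 25.4 CPM in Alb-Cre Stat3f/f tumours, against 6.24, 11.4 and 14.7 CPM in WT tumours. The groups overlapped, with 5 of 6 Alb-Cre Stat3f/f tumours above every WT tumour. The log2 fold change of 0.76 ± 0.21 was the smallest of the 7 members and did not pass (adjusted p = 0.0537, edgeR's quasi-likelihood test). It passed without WT tumour 5 (0.0373), Alb-Cre Stat3f/f tumour 3 (0.0379) or Alb-Cre Stat3f/f tumour 4 (0.0473), and otherwise the adjusted p reached up to 0.137. Igtp (chr11:58199556-58207591) and Irgm2 (chr11:58199618-58222782) lie on the same strand and share 162 exon bases at the 5′ end of Igtp, away from where these reads fall. Their summed counts gave a log2 fold change of 1.10 ± 0.27 (adjusted p = 0.0538).

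Iigp1, also called Irga6, is the best studied effector, and was the most abundant member in every tumour. It had a lowest, median and highest level of 258, 342 and 576 CPM in Alb-Cre Stat3f/f tumours, against 68.0, 175 and 204 CPM in WT tumours. The groups did not overlap. The log2 fold change of 1.32 ± 0.32 did not pass (adjusted p = 0.0546, edgeR's quasi-likelihood test), and over the fits that each left out 1 tumour the adjusted p ran from 0.0599 to 0.108. Iigp1 is the only member on chromosome 18 (chr18:60376027-60392634, plus strand).

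Ifi47, also called Irgd, had a lowest, median and highest level of 74.6, 90.4 and 129.8 CPM in Alb-Cre Stat3f/f tumours, against 25.0, 47.5 and 56.4 CPM in WT tumours. No WT tumour reached the lowest Alb-Cre Stat3f/f tumour. Ifi47 rose by 1.09 ± 0.19 on the log2 scale with an adjusted p of 0.00532 (edgeR's quasi-likelihood test), and its adjusted p stayed at or below 0.0191 whichever tumour was left out. The gene lies at chr11:49076587-49096974 on the plus strand and shares 111 exon bases with the olfactory receptor gene Olfr56.

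The Tgtp genes, known together as Irgb6, load early onto parasite vacuoles and had the lowest measured levels of the members. Reads that match both genes may have been left out of the counts, so these levels may be too low. Tgtp2 had a lowest, median and highest level of 1.54, 2.52 and 5.20 CPM in Alb-Cre Stat3f/f tumours, against 0.139, 0.716 and 1.91 CPM in WT tumours, with 5 of 6 Alb-Cre Stat3f/f tumours above every WT tumour. It passed the test (log2 fold change 1.95 ± 0.49, adjusted p = 0.0339, edgeR's quasi-likelihood test) on 114 counts in Alb-Cre Stat3f/f tumours and 35 in WT tumours. Tgtp1 had a lowest, median and highest level of 2.34, 3.80 and 4.94 CPM in Alb-Cre Stat3f/f tumours, against 0.682, 1.16 and 5.23 CPM in WT tumours. WT tumour 5 held the highest Tgtp1 level of all 12 tumours, and the difference did not pass (log2 fold change 0.89 ± 0.47, adjusted p = 0.303). The sum of both genes does not depend on how shared reads were divided between them, but lacks any that were left out. This sum did not pass (log2 fold change 1.28 ± 0.42, adjusted p = 0.0970, edgeR's quasi-likelihood test). The Tgtp2 call was also lost when WT tumour 1, 3, 4 or 6 or Alb-Cre Stat3f/f tumour 1, 2 or 6 was left out, with adjusted p-values of up to 0.0887, and it was not called with an acinar score as a covariate (adjusted p = 0.147).

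**Figure D1:**
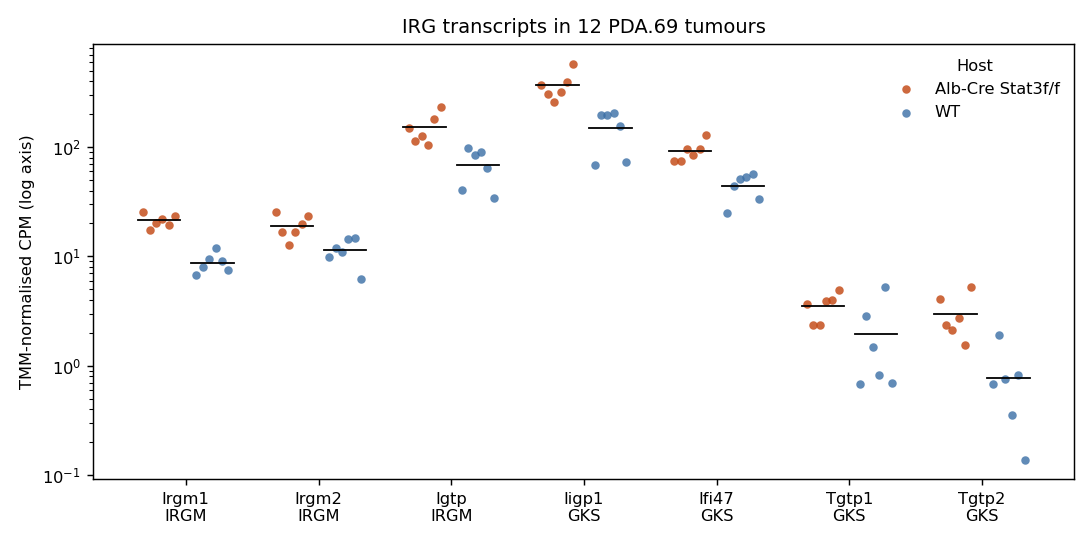
TMM-normalised CPM of the 7 IRG members on a log axis, 1 point per tumour and a line at each mean, with Alb-Cre Stat3f/f tumours (n = 6) left of WT tumours (n = 6). Irgm1, Igtp, Iigp1 and Ifi47 show no overlap between the genotypes, Irgm2 and Tgtp2 overlap by 1 Alb-Cre Stat3f/f tumour, and for Tgtp1 the WT tumours at 2.87 and 5.23 CPM lie among or above the Alb-Cre Stat3f/f tumours while the other 4 lie below them.

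In all, 3 of 7 members were called higher and 0 lower, 1 of 3 in the IRGM class and 2 of 4 in the GKS class. Over all 12856 genes tested, 2.98% were called, 2.23% higher and 0.747% lower. The log2 fold change was positive for all 7 members, with a median of 1.15, whereas the median over all genes was −0.00077 and 50.0% of genes were positive. For 4 of 7 members every Alb-Cre Stat3f/f tumour lay above every WT tumour, as was the case for 1.37% of all genes tested. Irgm1 and Ifi47 stayed past the threshold in each of the 12 fits that left out 1 tumour, and without Alb-Cre Stat3f/f tumour 4 the number of members called was 5. Scaling by library size alone, with no TMM factors, moved the median log2 fold change of all genes to −0.41, so that 19.4% of the calls were higher instead of 74.9%. Under it all 7 members kept a positive log2 fold change and 0 were called. Irgm1 was at 0.88 (adjusted p = 0.0673) and Ifi47 at 0.72 (adjusted p = 0.0941), which lie 1.29 and 1.13 above that median. It left 1 GBP gene, 1 further IRG gene and 2 macrophage markers called, and none of the interferon or T cell lists described further on. In bulk tissue, fewer cells of a type and less RNA per cell cannot be told apart.

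**Figure D2:**
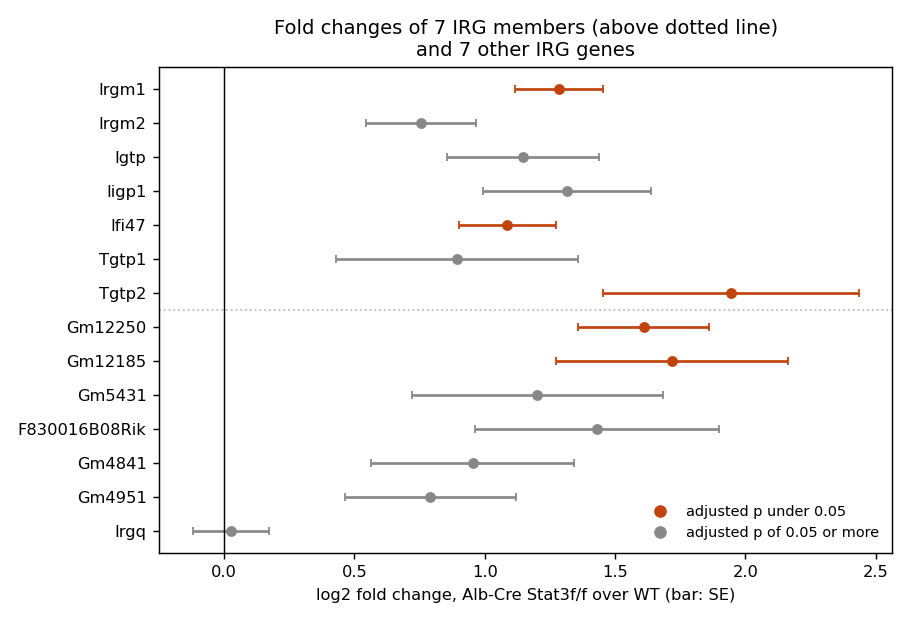
Log2 fold changes, Alb-Cre Stat3f/f over WT, of the 7 members (above the dotted line) and of 7 other IRG genes, with bars for the SE of the fit and colour for an adjusted p under 0.05. All members lie between 0.76 and 1.95, and Irgq, at 0.03, is the only gene close to 0.

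Both classes were compared by their mean level in each tumour. The mean log2 CPM of the IRGM members was 5.28 ± 0.28 in Alb-Cre Stat3f/f tumours and 4.21 ± 0.41 in WT tumours (SD, n = 6 each), a difference of 1.07. That of the GKS members was 4.63 ± 0.35 in Alb-Cre Stat3f/f tumours and 3.31 ± 0.62 in WT tumours, a difference of 1.32. In both classes all 6 Alb-Cre Stat3f/f tumours lay above all WT tumours. The median log2 fold change was 1.15 over the IRGM members, range 0.76 to 1.28, and 1.20 over the GKS members, range 0.89 to 1.95. The GKS mean minus the IRGM mean in the same tumour was −0.66 ± 0.17 in Alb-Cre Stat3f/f tumours, range −0.83 to −0.41, and −0.90 ± 0.40 in WT tumours, range −1.42 to −0.45 (SD, n = 6 each). These ranges overlapped, and the difference of 0.25 between the genotypes was smaller than the SD among WT tumours of 0.40. Each member has equal weight in these means, so the Tgtp genes, at no more than 5.23 CPM, count as much as Iigp1. With paralog counts summed the difference was smaller, as given in the last section. The difference was not given a p, because the members were chosen with results of these data known.

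**Figure D3:**
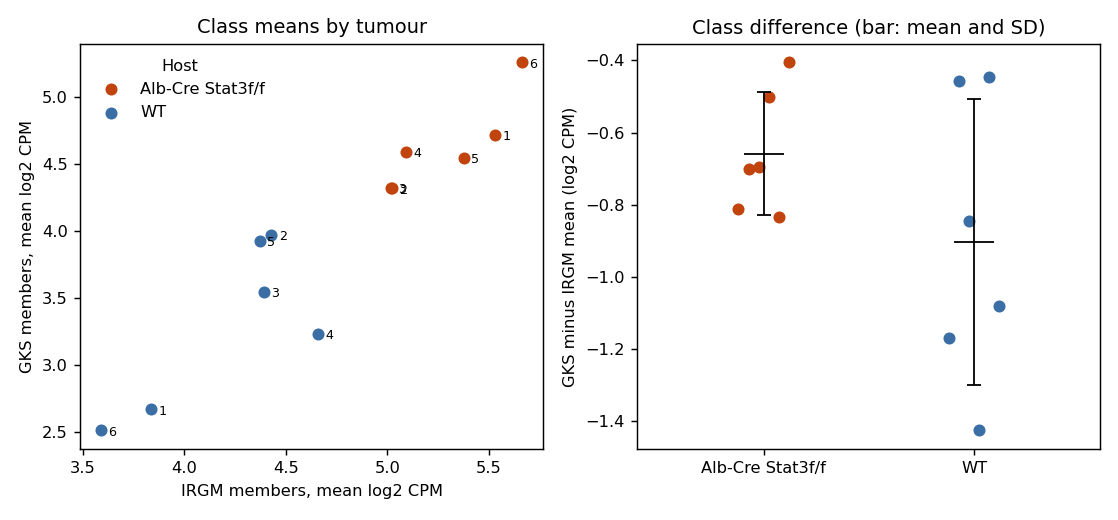
Left, mean log2 CPM of the IRGM members against that of the GKS members, 1 point per tumour. Right, the GKS mean minus the IRGM mean by host, Alb-Cre Stat3f/f before WT, with mean and SD. The genotypes separate along both axes on the left and overlap on the right, where Alb-Cre Stat3f/f tumours average −0.66 and WT tumours −0.90.

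Summed over members, IRGM transcripts reached 143.6 to 277 CPM in Alb-Cre Stat3f/f tumours and 48.0 to 118 CPM in WT tumours, and GKS transcripts 359 to 716 CPM in Alb-Cre Stat3f/f tumours and 94.4 to 258 CPM in WT tumours. GKS members made up 71.0 ± 2.09% of IRG counts in Alb-Cre Stat3f/f tumours and 68.3 ± 3.26% in WT tumours (SD, n = 6 each). Most of these were Iigp1, at 55.7 ± 3.14% of IRG counts in Alb-Cre Stat3f/f tumours and 51.1 ± 4.35% in WT tumours. There were 17.3 ± 4.43 Iigp1 counts for each Irgm1 count in Alb-Cre Stat3f/f tumours and 16.6 ± 5.72 in WT tumours, so this balance of effector and regulator differed by less than its spread. For each Irgm2 count there were 8.01 ± 1.88 Igtp counts in Alb-Cre Stat3f/f tumours and 6.00 ± 1.69 in WT tumours.

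Members were also compared across the tumours of each genotype. Alb-Cre Stat3f/f tumour 6 held the highest level of that genotype for 5 of 7 members and tumour 1 for the other 2, Irgm1 and Irgm2, whereas the lowest level was spread over tumours 2, 3, 4 and 5 (3, 2, 1 and 1 members). Among WT tumours, the lowest level was in tumour 1 for 4 members and in tumour 6 for 3, and the highest in tumour 5 for 3 and in tumours 2 and 4 for 2 each. After the genotype means were subtracted from log2 CPM, all 21 pairs of members had a positive Pearson correlation over the 12 tumours, from 0.189 to 0.940 with a median of 0.592. The closest pair was Igtp and Iigp1, 1 of each class, on different chromosomes. Irgm1 and Tgtp2 had the lowest value, and within the 6 WT tumours alone it was −0.104. The 10 pairs without the sparse Tgtp genes ran from 0.477 to 0.940. These values describe libraries that share depth and cell content, and carry no test.

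The 4 genes whose level followed the mean of the 7 members most closely over the 12 tumours, measured in the same way, were Mndal (r = 0.932), Trim30a (0.920), Cxcl9 (0.919) and Phf11b (0.918). Mndal and Trim30a passed edgeR's quasi-likelihood test, with log2 fold changes of 0.77 ± 0.17 (adjusted p = 0.0215) and 0.79 ± 0.19 (adjusted p = 0.0259). Phf11b had a log2 fold change of 0.92 ± 0.25 and did not pass (adjusted p = 0.0546). The Mndal call was lost without WT tumour 4 or 6 or Alb-Cre Stat3f/f tumour 1, with adjusted p-values of up to 0.0574, and that of Trim30a without WT tumour 1, 3, 4 or 6 or Alb-Cre Stat3f/f tumour 1 or 6, up to 0.0760.

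The family holds further genes in mice, most of them named by clone or predicted-gene symbols. Of 11 such genes listed, 10 were in the table and 7 passed the filter; 2 were called higher and 0 lower, all 7 had a positive log2 fold change, and the median was 1.20. Gm12250, which RefSeq gives the synonym Irgb10, is known for attacking bacterial membranes together with GBPs. It had a lowest, median and highest level of 14.4, 23.7 and 38.7 CPM in Alb-Cre Stat3f/f tumours, against 4.78, 8.085 and 11.2 CPM in WT tumours, with no overlap. Its log2 fold change was 1.61 ± 0.25 (adjusted p = 0.00176, edgeR's quasi-likelihood test). Gm12185, with the synonym Irgb2b1, averaged 3.49 ± 1.40 CPM in Alb-Cre Stat3f/f tumours and 1.06 ± 0.764 CPM in WT tumours (SD, n = 6 each), a log2 fold change of 1.72 ± 0.45 (adjusted p = 0.0400). It shares 223 exon bases with Tgtp1 at the 5′ end of Gm12185, away from where these reads fall. The Gm12185 call was lost without WT tumour 1, 3, 4 or 6 or Alb-Cre Stat3f/f tumour 1, 2 or 6, with adjusted p-values of up to 0.117.

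The other tested genes of the family did not pass. F830016B08Rik, with the synonym Ifgga4, averaged 34.9 CPM in Alb-Cre Stat3f/f tumours and 13.1 CPM in WT tumours (log2 fold change 1.43 ± 0.47, adjusted p = 0.126). Gm5431 had a log2 fold change of 1.20 ± 0.48 (adjusted p = 0.174), Gm4841 of 0.95 ± 0.39 (0.203) and Gm4951 of 0.79 ± 0.33 (0.211). Irgq, an IRG-related gene that is not known to be induced by interferon, had 24.5 ± 5.04 CPM in Alb-Cre Stat3f/f tumours and 23.9 ± 2.39 CPM in WT tumours (SD, n = 6 each). Its log2 fold change was 0.03 ± 0.15 (adjusted p = 0.946), and it was −0.44 with scaling by library size alone. 9930111J21Rik1 had 14 counts over the Alb-Cre Stat3f/f tumours and 10 over the WT tumours, 9930111J21Rik2 had 2 and 1, and the testis gene Irgc1 had 0 and 1, all too few to test.

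The 6 members on chromosome 11 lie in 2 clusters, Irgm1, Tgtp1, Tgtp2 and Ifi47 in one and Igtp and Irgm2 in the other, so neighbouring genes were examined. Of 18 tested genes outside the family within 250 kb of a member, 2 were called higher and 0 lower, and the median log2 fold change was 0.01. Psme2b lies between Irgm1 and Tgtp1, and its symbol places it with the interferon-inducible proteasome activator Psme2. Whether reads of Psme2 were counted to Psme2b is not known. Psme2b averaged 38.8 CPM in Alb-Cre Stat3f/f tumours and 23.5 CPM in WT tumours (log2 fold change 0.72 ± 0.13, adjusted p = 0.00455, edgeR's quasi-likelihood test). Among the 7 tumours with at most 15% acinar counts, 2 Alb-Cre Stat3f/f and 5 WT, Psme2b kept a log2 fold change of 0.71. It was not called in that smaller set (adjusted p = 0.0937, edgeR's quasi-likelihood test). Larp1, an RNA-binding regulator of translation near Igtp, had a log2 fold change of 0.56 ± 0.15 (adjusted p = 0.0453). That call held without WT tumour 5 or Alb-Cre Stat3f/f tumour 5 and was lost without any other, with adjusted p-values of up to 0.105. Its log2 fold change was 0.29 with the acinar covariate (adjusted p = 0.314) and 0.30 among the 7 tumours with at most 15% acinar counts (adjusted p = 0.559). Trim7, next to Irgm1, did not pass (0.76 ± 0.32, adjusted p = 0.196). None of the 4 tested neighbours of Iigp1 had a positive log2 fold change, and none was called.

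Since members varied together, their promoters were searched for the letters of 2 elements: GAAA, any 2 bases and again GAAA, a core of the interferon-stimulated response element read by IRF factors, and TTCNNNGAA, the gamma-activated sequence. Both strands were searched, from 250 bases before to 50 bases after each RefSeq start (GRCm38.p6), which for Irgm1, Irgm2 and Tgtp1 lies inside the GENCODE gene. Matches are in capitals, and 60 bases are shown on the gene's own strand for each member on chromosome 11 that had one.
Irgm1: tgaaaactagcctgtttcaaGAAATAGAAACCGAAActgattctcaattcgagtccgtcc
Igtp: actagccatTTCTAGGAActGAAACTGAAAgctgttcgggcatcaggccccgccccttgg
Irgm2: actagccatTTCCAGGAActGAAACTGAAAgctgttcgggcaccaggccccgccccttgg
Tgtp1: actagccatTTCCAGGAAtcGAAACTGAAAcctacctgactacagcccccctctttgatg
Tgtp2: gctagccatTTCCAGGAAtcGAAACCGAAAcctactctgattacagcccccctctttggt
These windows are chr11:48871411-48871470 (minus strand) for Irgm1, chr11:58199502-58199561 (plus) for Igtp, chr11:58214893-58214952 (plus) for Irgm2, chr11:48992284-48992343 (minus) for Tgtp1 and chr11:49064243-49064302 (minus) for Tgtp2. Irgm1 held 2 overlapping matches of the first motif and none of the second, whereas Igtp, Irgm2, Tgtp1 and Tgtp2 held both motifs side by side, in both classes. The window of Ifi47 held neither set of letters. Of the 6 members with a window in the table, 5 held the first motif and 4 the second, beside 3.99% and 9.55% of the 27025 genes with a window. The windows of Igtp and Irgm2 are nearly the same, and those of Tgtp1 and Tgtp2 are much alike, so these matches are not independent. A match describes the letters only, and no binding was measured.

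The GBPs are the other large family of interferon-inducible GTPases, and work on the same vacuoles. Of 11 genes, 9 passed the filter, 5 were called higher and 0 lower, all 9 were positive, and the median log2 fold change was 1.13, close to that of the IRG members. Gbp4 had 24.5 ± 10.6 CPM in Alb-Cre Stat3f/f tumours and 6.33 ± 2.21 CPM in WT tumours (SD, n = 6 each), a log2 fold change of 1.96 ± 0.28 (adjusted p = 0.00127, edgeR's quasi-likelihood test). Gbp7 (1.19 ± 0.26, adjusted p = 0.0325), Gbp3 (1.14 ± 0.26, adjusted p = 0.0329) and Gbp9 (0.74 ± 0.18, adjusted p = 0.0340) also rose, as did Gbp2 (1.34 ± 0.30, adjusted p = 0.0374). Only Gbp4 was called in every fit that left out 1 tumour: the number called was 1 without WT tumour 4 or Alb-Cre Stat3f/f tumour 1, 2 without WT tumour 1, 3 or 6, and 3 without WT tumour 5 or Alb-Cre Stat3f/f tumour 2. GBP paralogs are similar, and the counting rule for shared reads is not known.

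Of the interferon gamma signalling genes, 11 of 12 were tested, 1 was called higher and 0 lower, with a median log2 fold change of 0.58 and 8 positive values. Irf8, a transcription factor of macrophages and dendritic cells, was the gene called, with 111 ± 21.2 CPM in Alb-Cre Stat3f/f tumours and 64.6 ± 15.7 CPM in WT tumours (log2 fold change 0.78 ± 0.16, adjusted p = 0.0117, edgeR's quasi-likelihood test). Irf1 averaged 263 CPM in Alb-Cre Stat3f/f tumours and 176 CPM in WT tumours and did not pass (log2 fold change 0.57 ± 0.20, adjusted p = 0.132). The receptor genes Ifngr1 and Ifngr2 had log2 fold changes of −0.20 ± 0.13 (adjusted p = 0.444) and −0.36 ± 0.12 (adjusted p = 0.109). Ifng itself had 21 counts over the Alb-Cre Stat3f/f tumours, 14 of them in tumour 6, and 11 over the WT tumours, and was not tested. The number called in this list was 5 with DESeq2, 3 without WT tumour 2 and 2 without WT tumour 6.

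A list of 8 genes that interferon gamma induces held chemokines, enzymes and Cd274. All 8 were tested and positive, 2 were called higher and 0 lower, and the median log2 fold change was 1.03. Cybb, the catalytic subunit of the phagocyte NADPH oxidase, had a log2 fold change of 0.84 ± 0.13 (adjusted p = 0.00173, edgeR's quasi-likelihood test). Cxcl10, a chemokine that draws T cells, had one of 1.19 ± 0.26 (adjusted p = 0.0172), which was lost without Alb-Cre Stat3f/f tumour 1 (adjusted p = 0.0508). Cxcl9 averaged 177 CPM in Alb-Cre Stat3f/f tumours and 64.3 CPM in WT tumours without overlap, and did not pass (1.46 ± 0.43, adjusted p = 0.101). DESeq2 called 4 genes of this list.

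Of the type I interferon response genes, 19 of 20 were tested and 0 were called by edgeR's quasi-likelihood test, with 10 at an unadjusted p under 0.05, all of them higher, and 5 called higher by DESeq2. The median log2 fold change was 0.51, and 16 of 19 were positive. This list also held the receptor genes Ifnar1 (0.15 ± 0.13) and Ifnar2 (0.06 ± 0.09) and the kinase gene Tyk2 (−0.10 ± 0.13), which enter that median. The smallest p-values were those of Stat2, a subunit of the transcription factor ISGF3 (0.58 ± 0.16, adjusted p = 0.0522), and Ifit2 (0.83 ± 0.24, adjusted p = 0.0665). The number called was 2 without WT tumour 2 or Alb-Cre Stat3f/f tumour 4 or 5, and 1 without WT tumour 5 or Alb-Cre Stat3f/f tumour 2.

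The autophagy machinery that IRG loading depends on was set beside the family. Of 12 ATG8 conjugation genes, 0 were called by edgeR's quasi-likelihood test, with 2 at an unadjusted p under 0.05, both lower, and 1 called lower by DESeq2. The number called lower was 1 without WT tumour 5 or Alb-Cre Stat3f/f tumour 4 or 5. The median log2 fold change was 0.05. Gabarapl1 (−0.51 ± 0.14, adjusted p = 0.0567) and Map1lc3b (−0.34 ± 0.13, adjusted p = 0.152), both members of the ATG8 family, had the smallest p-values. A further list of 12 genes held ubiquitin ligases and autophagy receptors, together with Lgals3, Lgals8, Ulk1 and Becn1, which are neither. Of these 12 genes, 0 were called by edgeR's quasi-likelihood test, with 4 at an unadjusted p under 0.05, 1 higher and 3 lower. DESeq2 called 1 lower, as did the fit without Alb-Cre Stat3f/f tumour 4. The median of this list was −0.04. Trim21, an interferon-inducible ubiquitin ligase, had a log2 fold change of 0.80 ± 0.28 (adjusted p = 0.117) and the receptor Optn of −0.51 ± 0.16 (adjusted p = 0.0771).

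**Figure D4:**
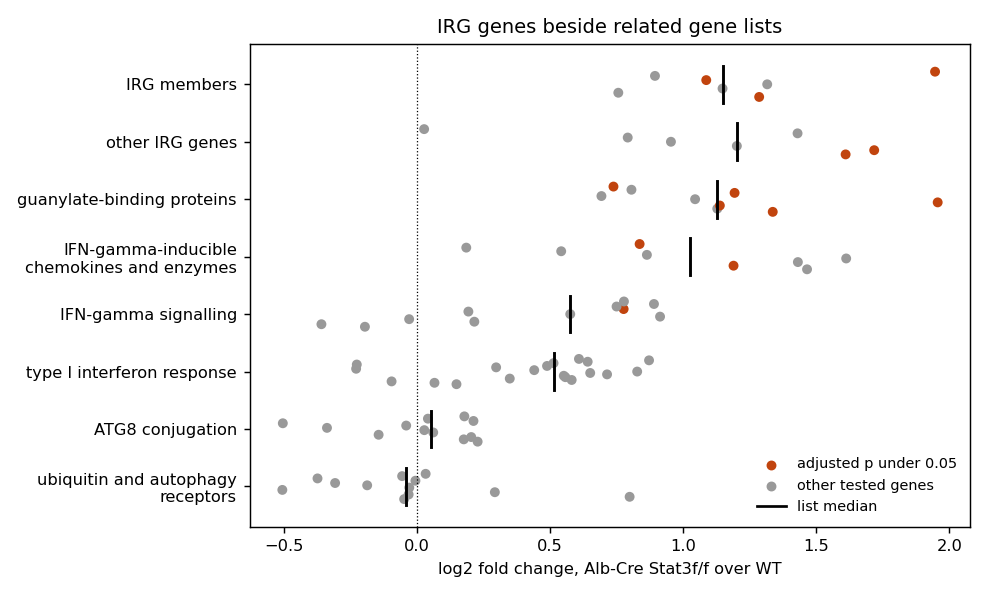
Log2 fold changes, Alb-Cre Stat3f/f over WT, of every tested gene in the lists of IRG, GBP, interferon and autophagy genes, 1 point per gene, coloured where the adjusted p is under 0.05, with a line at each list's median. IRG members (1.15), other IRG genes (1.20) and GBPs (1.13) have the highest medians, the type I interferon list is at 0.51, and the autophagy lists are at 0.05 and −0.04.

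Interferon-responsive genes are expressed by many cell types, and some markers of immune cells also differed between the genotypes. Of 12 macrophage and monocyte markers, 8 were called higher and 0 lower, with a median log2 fold change of 0.69 and a summed level of 1688 to 2601 CPM in Alb-Cre Stat3f/f tumours and 1182 to 1774 CPM in WT tumours. Mertk, a receptor for dying cells, had a log2 fold change of 0.97 ± 0.15 (adjusted p = 0.00176, edgeR's quasi-likelihood test), and Ly6c2, a monocyte surface protein, of 1.77 ± 0.30 (adjusted p = 0.00281). Of 11 tested T cell markers, 1 was called higher, Cd247, which encodes the CD3 zeta chain (1.42 ± 0.35, adjusted p = 0.0283), and all 11 were positive. Cd247 was not called without WT tumour 1, 3 or 6 or Alb-Cre Stat3f/f tumour 1, 2 or 6 (adjusted p up to 0.0769), and 2 or 3 T cell markers were called without WT tumour 2, 4 or 5 or Alb-Cre Stat3f/f tumour 3. DESeq2 called 6 of the 11 higher. The T cell markers summed to 55.3 to 113 CPM in Alb-Cre Stat3f/f tumours and 18.5 to 54.4 CPM in WT tumours, without overlap. Of 3 tested cytotoxic and natural killer markers, 2 were called higher, Nkg7 (1.31 ± 0.24, adjusted p = 0.00538) and Klrd1 (1.99 ± 0.41, adjusted p = 0.0124). All 8 markers of this list, tested or not, summed to 26.9 to 56.3 CPM in Alb-Cre Stat3f/f tumours and 8.18 to 17.98 CPM in WT tumours.

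Of 8 tested dendritic cell markers, 2 were called higher. The number called was 1 without WT tumour 3 or 4 or Alb-Cre Stat3f/f tumour 1, 2 or 6, and 3 without WT tumour 2 or with DESeq2. All 9 markers of this list, tested or not, summed to 85.0 to 136 CPM in Alb-Cre Stat3f/f tumours and 39.4 to 80.4 CPM in WT tumours, without overlap. Of 4 tested B cell markers, 0 were called by edgeR's quasi-likelihood test, with 4 at an unadjusted p under 0.05, all higher, and 1 called higher by DESeq2. Their median log2 fold change was 2.37, and their sums of 3.17 to 49.5 CPM in Alb-Cre Stat3f/f tumours overlapped with the 2.05 to 16.3 CPM of WT tumours. The number called was 2 without WT tumour 5 and 1 without Alb-Cre Stat3f/f tumour 5 or 6, and Cd79a was at 0 in all libraries. Of 4 tested neutrophil markers, 0 were called by edgeR's quasi-likelihood test or DESeq2, with a median log2 fold change of 0.37. All 6 neutrophil markers, tested or not, summed to 86.8 to 156 CPM in Alb-Cre Stat3f/f tumours, which overlapped with the 47.0 to 164 CPM of WT tumours. Neither test called any of 6 endothelial markers (median 0.14) or 8 hepatocyte markers (median −0.08). Of 8 fibroblast markers, all positive with a median of 0.44, 1 was called higher, Dcn, a matrix proteoglycan (log2 fold change 0.96 ± 0.22, adjusted p = 0.0337). It was not called without WT tumour 1, 2, 3 or 6 or Alb-Cre Stat3f/f tumour 1, 2 or 3, nor among the 7 tumours with at most 15% acinar counts, and DESeq2 called 2 of the list. Of 8 ductal markers, 2 were called lower, Sox9 (−0.49 ± 0.10, adjusted p = 0.0103, edgeR's quasi-likelihood test) and Krt7 (−0.59 ± 0.12, adjusted p = 0.0113). Among the 7 tumours with at most 15% acinar counts 0 were called, with log2 fold changes of −0.47 for Sox9 and −0.40 for Krt7. Of 24 tested acinar genes, 0 were called by edgeR's quasi-likelihood test, with 10 at an unadjusted p under 0.05, all higher, and 0 called by DESeq2. The part that these cell types have in the IRG differences was not tested. For the acinar share, the measured values are that with an acinar score as a covariate, Irgm1 had a log2 fold change of 1.28 ± 0.19 (adjusted p = 0.000874) and Ifi47 of 1.10 ± 0.21 (adjusted p = 0.0225). Among the 7 tumours with at most 15% acinar counts, Alb-Cre Stat3f/f tumours 5 and 6 and 5 WT tumours, Irgm1 had one of 1.30 ± 0.25 (adjusted p = 0.0233) and Ifi47 of 1.45 ± 0.25 (adjusted p = 0.0320). In both fits these were the 2 members called. In both fits, called higher were 2 of 9 GBP genes, 1 of the 7 other IRG genes, 0 of 11 interferon gamma signalling genes, 0 of 11 T cell markers, 1 of 8 dendritic cell markers and 2 cytotoxic and natural killer markers. Macrophage and monocyte markers were called in 8 of 12 with the covariate and in 7 of 12 in the 7 tumours.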

How the data were processed

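RNA of 12 tumours was measured in 1 library each. The authors deposited raw gene counts, whole numbers whose totals differ between libraries. Per the submitters' processing notes, STAR and the mouse build mm10 were used; the sources used here do not give their versions, the counting tool, annotation, strand setting or treatment of shared reads. The table held 24982 entries, of which 26 dates in place of symbols were left out (0.069 to 0.166% of counts). Of 24956 symbols, 24420 (97.9%) matched 1 gene of GENCODE release M21, which gave coordinates on GRCm38. The members and all gene lists were chosen with earlier results of these data known.

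The test used edgeR 4.0.16 under R 4.3.3: filterByExpr (minimum count 10, minimum total 15, proportion 0.7), TMM factors of 0.578 to 1.29, and the robust quasi-likelihood test of genotype, two-sided, over 12856 genes with Benjamini-Hochberg adjustment and a threshold of 0.05. The biological coefficient of variation was 0.250. Log2 CPM used a prior count of 2. Classes were compared as the mean log2 CPM of their members per tumour, with no test. Text names all members, all other IRG genes with a count, and in each list up to 4 genes with the smallest p; Ifngr1, Ifngr2 and further markers shown as list examples were chosen after their values were seen, and 1 gene that the rule covers is not reported here. Scripts were tested on simulated data. Alternatives were DESeq2 1.42.0, other scalings and filters, leaving out each tumour, a replicate block, an acinar covariate, leaving out tumours over 15% acinar counts, removal of acinar genes and Rn45s before scaling, and sums of paralogs. Libraries of the same genotype all differed by far more than sampling noise, with a lowest chi-square per gene of 12.6. Molecular identifiers are not stated, so intervals cover counting error only. Numbers open the sample descriptions, and each of the 6 Alb-Cre Stat3f/f numbers is below each WT number; whatever order they stand for cannot be told apart from the genotype.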

Additional observations from a re-analysis of the deposited data

Results flagged for a closer look

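In Alb-Cre Stat3f/f tumour 3, Iigp1 made up 49.6% of the counts of the 7 IRG members (95% exact binomial interval 47.6 to 51.7%, counting error only), the lowest of that genotype and set apart from the other 5, which lay between 55.0 and 58.0%. WT tumours ran from 44.8 to 55.6%. It was the only value set apart among 18 groups of 6 tumours examined in this way (the 7 members' CPM, the GKS minus IRGM difference and the Iigp1 share, in both genotypes), and chance sets apart about 1 in 20 such groups. The same tumour had the lowest Iigp1 level of its genotype, 258 CPM, and the highest number of Igtp counts per Irgm2 count, 10.1.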

How the results depend on the processing

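All 7 members kept a positive log2 fold change in every alternative run. Irgm1 and Ifi47 were each called in 21 of 22 alternatives, Irgm2 in 5 of 21, Igtp in 3 of 21, Iigp1 in 2 of 22, Tgtp1 in 0 of 20 and Tgtp2 in 8 of 19. Igtp and Iigp1 passed with DESeq2 (adjusted p = 0.00419 and 0.00266) and when genes had to reach 10 CPM in 6 tumours (0.0487 and 0.0452); Irgm2 passed with DESeq2 (0.0160) and with no low count filter (0.0430). The 3 members called became 5 with DESeq2, which gave Tgtp2 no adjusted p and called Irgm1, Irgm2, Igtp, Iigp1 and Ifi47, and 0 with library size alone, and 2 to 5 when 1 tumour was left out. The 287 genes called higher became 618 with DESeq2, 32 with library size alone, 121 with the acinar covariate and 83 without tumours over 15% acinar counts, and 141 to 471 when 1 tumour was left out. The 96 called lower became 288, 133, 24 and 14 in the same order, and 37 to 222 when 1 tumour was left out. The share of calls that were higher was 83.4% with the acinar covariate and 85.6% without tumours over 15% acinar counts. The GKS minus IRGM difference of 0.25 ran from 0.10 with paralogs summed to 0.39 without tumours over 15% acinar counts. Irgq reversed to −0.44 with library size alone, −0.077 with the acinar covariate, −0.23 without tumours over 15% acinar counts, and ran from −0.042 to 0.092 when 1 tumour was left out, with −0.0093 without WT tumour 5, −0.042 without Alb-Cre Stat3f/f tumour 3 and −0.041 without Alb-Cre Stat3f/f tumour 4. The cause of these shifts was not tested. The tumour numbers do not pair the samples: same-numbered tumours had correlations of −0.513 to 0.127, and 1 of 6 correlated best with its own number. With the tumour number as a replicate block, 145 genes were called higher and 44 lower, and 2 members, Irgm1 (1.29, adjusted p = 0.00735) and Ifi47 (1.10, adjusted p = 0.00821), were called, while Tgtp2 was not (adjusted p = 0.0992). The Tgtp genes had the fewest counts of the members, with 35 counts of Tgtp2 over the WT tumours. Whether depth or the treatment of reads shared by both genes set these counts was not tested.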
